A study of Homo sapiens with 16 samples.

Results

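The genes described here are a list of 43 that encode the subunits of the kinase complexes mTORC1 and mTORC2, the proteins that report amino acid and growth factor supply to them, and the AKT, S6 and SGK kinases that act around them. The list was set by gene name, and for each gene the probe set brightest on average over the 16 arrays was used. Of the 43 genes, 42 were measured among the 19775 genes of the array. LAMTOR1, a subunit of the lysosomal scaffold Ragulator, had no probe set listing a single gene and was not analysed here.

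MIA PaCa-2 cells, an established human pancreatic cancer line, received either 2.5 µM PP242, which blocks the catalytic site of the mTOR kinase, or the DMSO vehicle for 12 hours. RNA was then taken from the cytosol and from the pooled fractions of a 10% to 50% sucrose gradient in which an mRNA carries more than 3 ribosomes. The 4 groups of 4 Affymetrix arrays each are polysome RNA of PP242-treated cells, polysome RNA of vehicle-treated cells, cytosolic RNA of PP242-treated cells and cytosolic RNA of vehicle-treated cells. All samples come from this 1 line with no genetic change named, and the labels leave unsaid whether the replicates were grown as separate cultures, so p-values measure only the spread between these arrays, which may be technical.

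As background, mTOR is the catalytic subunit of a complex with RPTOR, which drives protein synthesis and cell growth when amino acids are present, and of another with RICTOR, which phosphorylates AKT and SGK kinases. Amino acids act through the Rag GTPases, which sit on the lysosome with Ragulator and are switched by the GATOR and folliculin complexes, while growth factors act through AKT, which restrains the TSC complex and so frees the GTPase RHEB to activate mTORC1.

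Array values are log2 signals between 1.65 and 14.61, and the number of arrays limits the precision. The arrays of a group correlated at 0.979 to 0.998. Array medians lay between 4.57 and 4.63 in the polysome arrays and between 5.0 and 5.05 in the cytosolic arrays, so the 2 RNA pools look to have been scaled apart. Each PP242 effect is therefore a difference within 1 pool, set against that pool's remaining mRNAs, a change shared by all mRNAs is not visible, and less RNA per cell cannot be told apart from fewer cells. The cytosolic arrays of PP242-treated cells were the most variable: the median SD over the 42 genes was 0.337 there, against 0.137 in cytosolic vehicle arrays, while it was 0.158 in polysome PP242 and 0.178 in polysome vehicle arrays. Among markers, vimentin (VIM, mean 14.18) and 4 keratins (lowest KRT7, 6.33) had clear signal, while no leukocyte (highest CD14, 5.39), endothelial (highest PECAM1, 5.84) or normal pancreas marker (highest CELA3A, 5.18) exceeded 6. Of 5 fibroblast markers the lowest was LUM (3.27) and the highest COL1A2 (11.54), and their summed linear signal was 2266 to 3663 in polysome PP242 arrays against 3949 to 6491 in polysome vehicle arrays, and 1755 to 2861 in cytosolic PP242 arrays against 2898 to 4010 in cytosolic vehicle arrays. The sum over VIM and the keratins moved the other way, with 51900 to 53850 in polysome PP242 arrays against 41000 to 45750 in polysome vehicle arrays, and 36920 to 48720 against 27270 to 30140 in the cytosolic arrays. The part of these spreads and markers in the results was not tested, except where arrays are left out.

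PP242 changed a minority of the mTOR network genes, in both directions, and MTOR, RPTOR, RICTOR and MLST8 did not pass the test in either pool. In polysome RNA DEPTOR, TSC1, WDR59 and SGK1 rose and TBC1D7, SEC13 and RPS6KB1 fell, which is 4 higher and 3 lower of 42 genes, against 6.82% of all genes called higher and 6.55% called lower (limma, adjusted p under 0.05 over all genes). In cytosolic RNA TSC2, RRAGC, NPRL3, WDR59 and SGK1 rose and TTI1, TBC1D7, FNIP2 and RPS6KB1 fell, which is 5 higher and 4 lower, against 8.54% and 7.91% of all genes. Without cytosolic PP242 arrays 2 and 4, the calls of TSC2 (0.21), RRAGC (0.41), NPRL3 (0.32), WDR59 (0.27) and FNIP2 (-0.40) in cytosolic RNA were lost and AKT1 (-0.46, adjusted p = 0.0419) was called lower. WDR59, SGK1, TBC1D7 and RPS6KB1 were called in both pools, each in the same direction, and 30 genes were called in neither. The median difference over the 42 genes was -0.03 in polysome RNA and 0.01 in cytosolic RNA on the log2 scale, beside -0.01 and 0.04 over all genes. The arrays of treated and vehicle cells did not overlap for 12 of the 42 genes in polysome RNA and for 9 in cytosolic RNA, against 19.3% and 17.7% of all genes. With a replicate block, 14 genes were called in each pool, 9 higher and 5 lower both times, against 10.6% higher and 9.72% lower of all genes in polysome RNA and 13.9% and 11.0% in cytosolic RNA. The 7 added in polysome RNA were RICTOR, TSC2, RRAGC, RRAGD and FNIP1 (higher) and TTI1 and RRAGA (lower), and the 5 added in cytosolic RNA were MLST8, DEPTOR, RRAGD and MIOS (higher) and LAMTOR5 (lower). The split in polysome RNA was 7 higher and 2 lower after cyclic loess over all arrays, where it was 1624 and 1192 over all genes. It was 2 higher and 3 lower with each array centred on its median, where it was 1096 and 1682 over all genes.

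**Figure D1:**
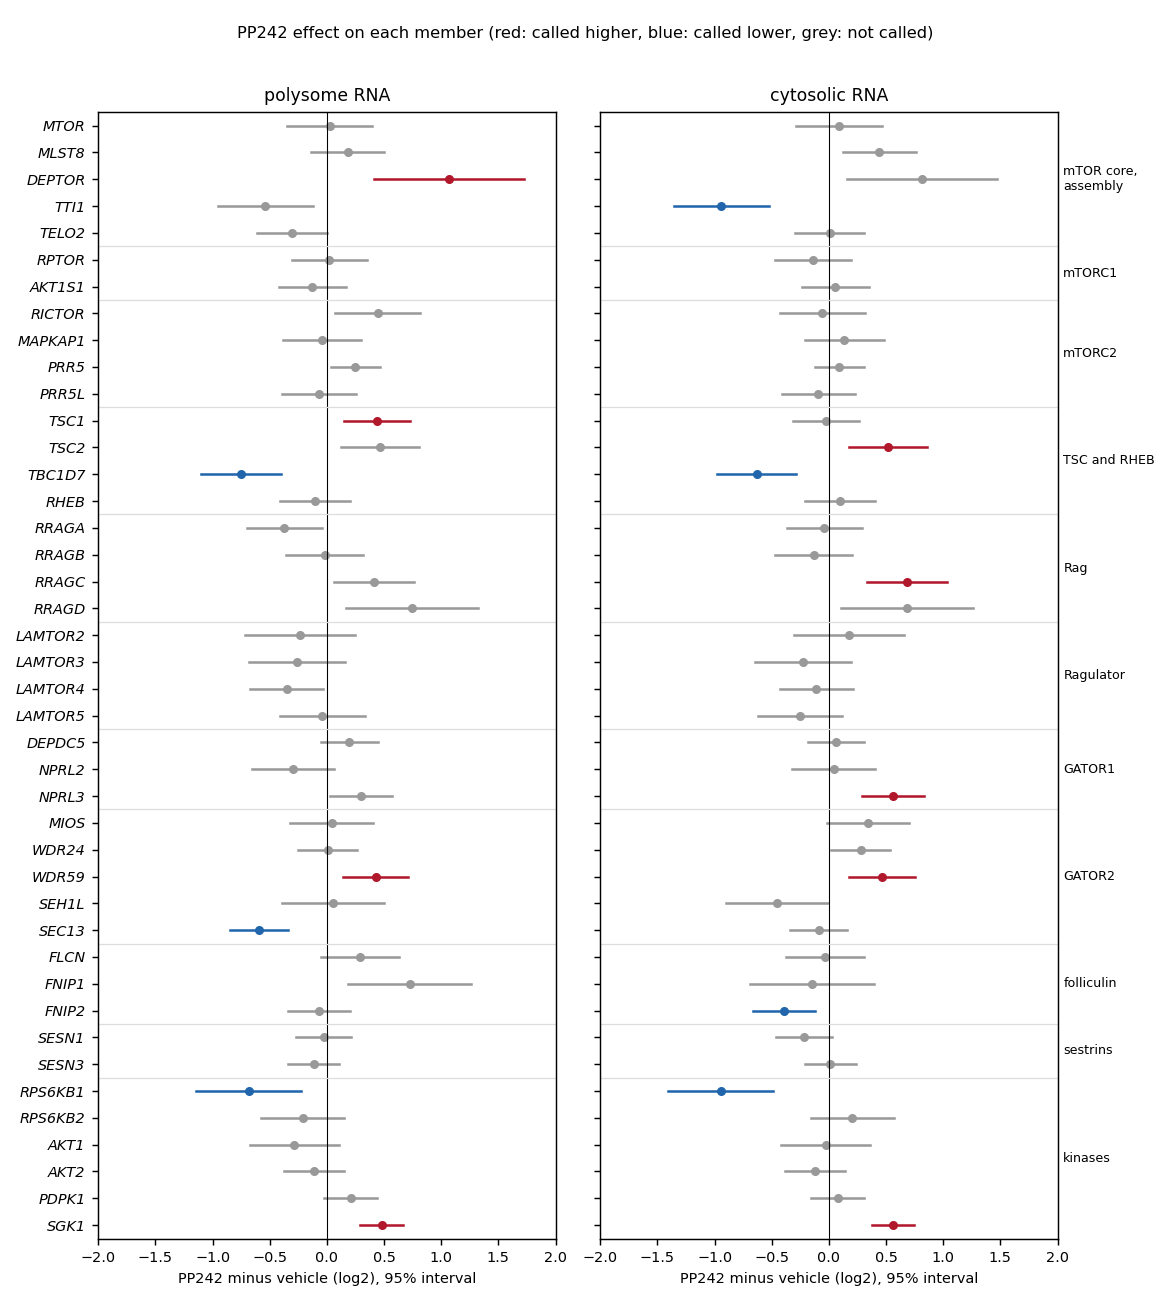
PP242 minus vehicle differences (log2, x axis) with 95% confidence intervals for the 42 genes, grouped by role from top to bottom, in polysome RNA (left) and cytosolic RNA (right). Red marks genes called higher, blue genes called lower and grey genes not called at an adjusted p under 0.05, and most intervals, those of MTOR and RPTOR among them, include 0.

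**Figure D2:**
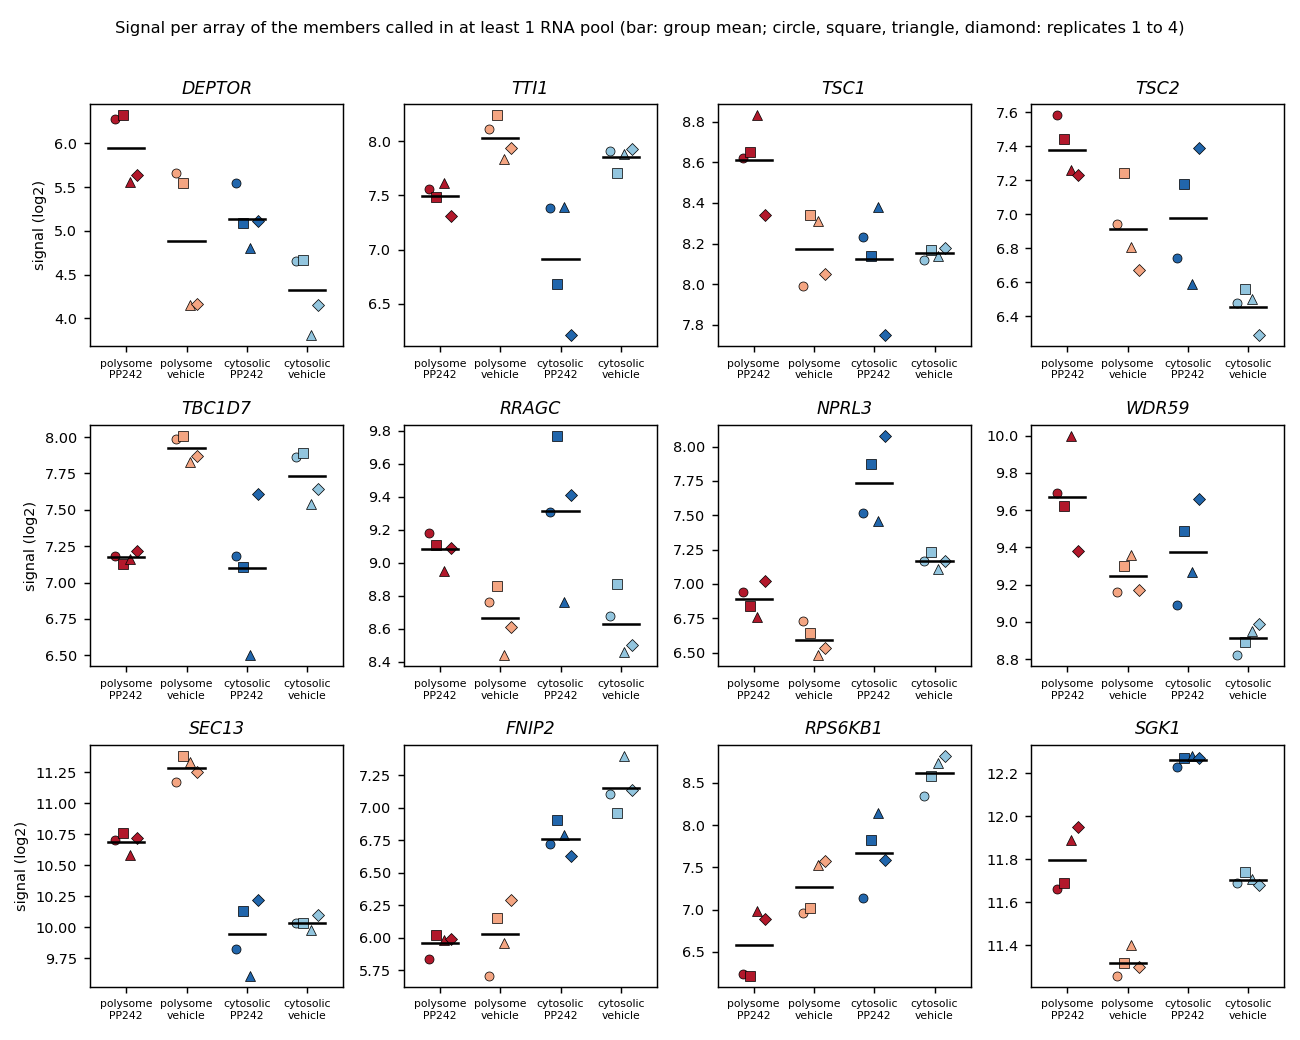
Log2 signal (y axis) of the 12 genes called in at least 1 pool, for the 4 arrays of each group in the order polysome PP242, polysome vehicle, cytosolic PP242 and cytosolic vehicle. Symbols stand for replicate numbers 1 to 4 and bars for group means, and SGK1 and RPS6KB1 move the same way in both pools while SEC13 differs between treatments in polysome RNA.

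The letters before the start sites of 5 genes are shown because TSC2 and RRAGC rose in cytosolic RNA, RPS6KB1 and TBC1D7 fell in both pools, and FNIP1, whose effect differed most between the pools among the 42 genes, holds the motif in 2 places. Capitals mark CACGTG, the E-box core read by the MYC and TFE families of transcription factors, or its 8-letter form TCACGTGA, known from promoters of lysosomal genes, which contains CACGTG. The sequences are RefSeq's on GRCh38.p14, written 5′ to 3′ on the gene's strand, and each holds the 250 bases before the start site.
TSC2 (chr16:2047735-2047984, plus strand): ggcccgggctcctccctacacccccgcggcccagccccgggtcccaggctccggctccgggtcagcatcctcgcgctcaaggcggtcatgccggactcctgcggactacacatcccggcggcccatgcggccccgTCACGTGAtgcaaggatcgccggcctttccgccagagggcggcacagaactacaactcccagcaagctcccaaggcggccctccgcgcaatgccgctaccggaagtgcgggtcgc
RRAGC (chr1:38859773-38860022, minus strand): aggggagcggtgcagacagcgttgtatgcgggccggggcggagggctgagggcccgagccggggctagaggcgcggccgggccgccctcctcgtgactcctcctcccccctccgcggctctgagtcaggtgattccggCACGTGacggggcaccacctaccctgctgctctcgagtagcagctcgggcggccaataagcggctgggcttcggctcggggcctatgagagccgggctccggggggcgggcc
FNIP1 (chr5:131797018-131797267, minus strand): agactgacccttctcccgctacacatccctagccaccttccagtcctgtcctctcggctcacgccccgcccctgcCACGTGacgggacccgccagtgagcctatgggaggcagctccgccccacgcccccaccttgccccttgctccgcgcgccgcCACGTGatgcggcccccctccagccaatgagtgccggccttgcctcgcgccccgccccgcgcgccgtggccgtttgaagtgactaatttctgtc
RPS6KB1 (chr17:59892871-59893120, plus strand): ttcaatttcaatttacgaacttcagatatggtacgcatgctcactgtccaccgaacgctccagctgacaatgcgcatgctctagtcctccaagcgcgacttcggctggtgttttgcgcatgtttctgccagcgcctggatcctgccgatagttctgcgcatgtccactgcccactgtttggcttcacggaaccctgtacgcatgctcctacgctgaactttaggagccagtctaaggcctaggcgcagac
TBC1D7 (chr6:13328538-13328787, minus strand): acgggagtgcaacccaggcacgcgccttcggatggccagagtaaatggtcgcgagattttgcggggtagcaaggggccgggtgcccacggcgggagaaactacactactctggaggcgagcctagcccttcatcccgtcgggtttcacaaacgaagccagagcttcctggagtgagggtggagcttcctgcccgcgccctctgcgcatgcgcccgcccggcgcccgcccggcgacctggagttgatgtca
Counted from the start site, with bases before it negative, the TCACGTGA of TSC2 begins at -115, the CACGTG of RRAGC at -112 and the pair in FNIP1 at -175 and -94. RPS6KB1 and TBC1D7 show no capitals because neither motif is in these windows. TSC2 has another window, not shown, at a start site further downstream, and neither motif is in it. Among the 37 listed genes with a 300-base window (250 bases before to 50 after the start site), 9 (24.3%) held CACGTG on either strand in at least 1 window, as 8.78% of all genes with windows did. They were TSC2, RRAGC, NPRL3, FNIP1, PRR5, TELO2, RRAGB, LAMTOR4 and the unmeasured LAMTOR1. Of these, FNIP1, PRR5, TELO2, RRAGB and LAMTOR4 were not called for PP242 in either pool. Among the genes called higher, TSC1, WDR59 and SGK1 held neither form of the E-box in any window, and DEPTOR had no window. TCACGTGA was in the windows of TSC2 and RRAGB (5.41% of the 37, against 1.18% of all genes), and the forkhead motif GTAAACA in none of the 37 (4.19% of all genes). A match describes letters in a window and is neither a binding site nor a cause.

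Among the genes shared by both complexes, DEPTOR rose and TTI1 fell, while the kinase itself did not pass the test. MTOR had a log2 signal of 8.05, 8.26, 8.14 and 7.89 in polysome RNA of PP242-treated cells, against 7.78, 8.15, 8.24 and 8.08 in that of vehicle-treated cells. In cytosolic RNA MTOR read 7.38, 7.82, 7.75 and 8.48 in PP242-treated cells, against 7.59, 7.69, 7.87 and 7.93 in vehicle-treated cells. The treatments overlap in both pools, and the differences of 0.02 ± 0.18 (95% interval -0.35 to 0.40) and 0.09 ± 0.18 (-0.29 to 0.46) leave changes within those bounds possible, where ± is the standard error of the limma contrast here and below. MLST8, the small subunit that steadies the kinase domain, read 7.60, 7.55, 7.57 and 7.45 in polysome PP242 arrays, against 7.51, 7.36, 7.18 and 7.40 in polysome vehicle arrays. Its cytosolic signals were 6.97, 7.78, 7.05 and 7.64 with PP242, against 6.82, 6.98, 6.90 and 6.98 with vehicle. The cytosolic groups touch in a narrow band, and the difference of 0.44 ± 0.15 missed the threshold (adjusted p = 0.0565), passing it with the replicate block (adjusted p = 0.0270).

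DEPTOR, a subunit that restrains the kinase in both complexes, read 6.28, 6.32, 5.56 and 5.64 in polysome PP242 arrays, against 5.66, 5.55, 4.15 and 4.16 in polysome vehicle arrays. In the cytosol its values were 5.55, 5.09, 4.80 and 5.11 with PP242, against 4.66, 4.67, 3.81 and 4.15 with vehicle. The cytosolic groups do not overlap and the polysome groups do, and there replicates 1 and 2 lie above replicates 3 and 4 under both treatments. DEPTOR rose by 1.07 ± 0.31 in polysome RNA (2.10-fold, adjusted p = 0.0275), the largest difference among the 42 genes there, and differed by 0.82 ± 0.31 in cytosolic RNA (adjusted p = 0.0838, or 0.00167 with the replicate block). TTI1, which with TELO2 assembles the mTOR kinase, had 7.56, 7.49, 7.62 and 7.31 in polysome PP242 arrays, against 8.11, 8.24, 7.84 and 7.94 in polysome vehicle arrays. Its cytosolic values were 7.38, 6.68, 7.39 and 6.21 with PP242, against 7.91, 7.71, 7.88 and 7.93 with vehicle. In both pools every PP242 array lies below every vehicle array. TTI1 fell by 0.94 ± 0.20 in cytosolic RNA (1.92-fold, adjusted p = 0.00263), and its polysome difference of -0.54 ± 0.20 passed only with the replicate block (adjusted p = 0.0339 against 0.0841). TELO2 averaged 7.70 with PP242 against 8.0 with vehicle in polysome RNA (-0.31 ± 0.15, adjusted p = 0.206), and 7.64 under either treatment in cytosolic RNA. The polysome call of DEPTOR was lost without replicate 2, 3 or 4 (adjusted p up to 0.136) and when its probe sets were averaged (0.48, adjusted p = 0.0975). It was also lost with only the 8 polysome arrays. DEPTOR was dim, with a mean of 5.07 over all arrays and of 4.32 in cytosolic vehicle arrays, below the medians of those arrays.

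Neither mTORC1 gene and none of the 4 mTORC2 genes was called in either pool. RPTOR, which presents substrates to mTORC1, read 6.69, 6.80, 6.69 and 6.57 in polysome PP242 arrays, against 6.63, 6.78, 6.54 and 6.72 in polysome vehicle arrays. Its cytosolic values were 7.22, 7.14, 7.07 and 6.27 with PP242, against 7.05, 7.06, 7.10 and 7.05 with vehicle. The groups overlap in both pools, and in the cytosol replicate 4 of the PP242 arrays stands far below all others. The differences were 0.02 ± 0.16 (95% interval -0.31 to 0.35) in polysome RNA and -0.14 ± 0.16 (-0.47 to 0.19) in cytosolic RNA. AKT1S1, which encodes the mTORC1 inhibitor PRAS40, differed by -0.13 ± 0.14 in polysome and 0.06 ± 0.14 in cytosolic RNA.

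RICTOR, the defining subunit of mTORC2, read 7.53, 7.47, 7.77 and 7.62 in polysome PP242 arrays, against 7.05, 7.18, 7.26 and 7.13 in polysome vehicle arrays. Cytosolic signals were 7.26, 7.93, 8.40 and 7.50 with PP242, against 7.63, 7.84, 7.96 and 7.90 with vehicle. Every treated polysome array lies above every vehicle one, while the treated cytosolic arrays lie on both sides of the vehicle arrays. The polysome difference of 0.44 ± 0.18 did not pass the test (adjusted p = 0.119), but did with the replicate block (adjusted p = 0.0280). The remaining mTORC2 genes are MAPKAP1, which encodes the substrate-binding subunit SIN1, and PRR5 and PRR5L, which encode the Protor subunits. Their polysome differences were -0.04 ± 0.16, 0.25 ± 0.10 and -0.07 ± 0.15, and their cytosolic differences 0.14 ± 0.16, 0.09 ± 0.10 and -0.09 ± 0.15. PRR5L was dim, with a mean of 5.0 over all arrays.

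Of the 3 subunits of the TSC complex, which switches RHEB off, TSC1 rose in polysome RNA, TSC2 rose in cytosolic RNA and TBC1D7 fell in both. TSC1, the stabilising subunit, read 8.62, 8.65, 8.83 and 8.34 in polysome PP242 arrays, against 7.99, 8.34, 8.31 and 8.05 in polysome vehicle arrays. Its cytosolic values were 8.23, 8.14, 8.38 and 7.75 with PP242, against 8.12, 8.17, 8.14 and 8.18 with vehicle. The polysome groups meet at a shared value of 8.34 and the cytosolic groups overlap. The differences were 0.44 ± 0.14 in polysome RNA (adjusted p = 0.0430) and -0.03 ± 0.14 in cytosolic RNA (adjusted p = 0.918). TSC2, the subunit that makes RHEB hydrolyse GTP, read 7.58, 7.44, 7.26 and 7.23 in polysome PP242 arrays, against 6.94, 7.24, 6.81 and 6.67 in polysome vehicle arrays. Its cytosolic arrays gave 6.74, 7.18, 6.59 and 7.39 with PP242, against 6.48, 6.56, 6.50 and 6.29 with vehicle. The cytosolic groups do not overlap and the polysome groups overlap by 0.01. TSC2 rose by 0.52 ± 0.16 in cytosolic RNA (adjusted p = 0.0361), and its polysome difference of 0.46 ± 0.16 was of similar size (adjusted p = 0.0706, or 0.0324 with the replicate block).

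TBC1D7, the third TSC subunit, read 7.18, 7.13, 7.16 and 7.22 in polysome PP242 arrays, against 7.99, 8.01, 7.83 and 7.87 in polysome vehicle arrays. In the cytosol its values were 7.18, 7.11, 6.50 and 7.61 with PP242, against 7.86, 7.89, 7.54 and 7.64 with vehicle. The polysome groups are far apart, and in the cytosol replicate 4 of the PP242 arrays lies within the vehicle range. TBC1D7 fell by 0.75 ± 0.17 in polysome RNA (1.69-fold, adjusted p = 0.00402) and by 0.63 ± 0.17 in cytosolic RNA (1.55-fold, adjusted p = 0.0126). RHEB, the GTPase that activates mTORC1, averaged 10.76 with PP242 against 10.87 with vehicle in polysome RNA and 11.31 against 11.22 in cytosolic RNA, with no call. The TSC1 call was lost without replicate 1, 2 or 3 (adjusted p up to 0.247) and with arrays centred on their medians (0.0855), and the TSC2 call without replicate 1, 2 or 4 (up to 0.291) and with its probe sets averaged (0.26, adjusted p = 0.0665). The TBC1D7 call was lost without replicate 2 in polysome RNA (-0.71, adjusted p = 0.0580) and without replicate 1 or 2 in cytosolic RNA (up to 0.121).

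The Rag GTPases work as a heterodimer of RRAGA or RRAGB with RRAGC or RRAGD, and of these 4 genes RRAGC was called, in cytosolic RNA. RRAGC read 9.18, 9.11, 8.95 and 9.09 in polysome PP242 arrays, against 8.76, 8.86, 8.44 and 8.61 in polysome vehicle arrays. Cytosolic signals were 9.31, 9.77, 8.76 and 9.41 with PP242, against 8.68, 8.87, 8.46 and 8.50 with vehicle. Only replicate 3 of the treated cytosolic arrays reaches into the vehicle range, and the polysome groups are apart. RRAGC rose by 0.69 ± 0.17 in cytosolic RNA (1.61-fold, adjusted p = 0.00781) and differed by 0.42 ± 0.17 in polysome RNA (adjusted p = 0.119, or 0.0145 with the replicate block). Its paralog RRAGD averaged 9.36 ± 0.39 with PP242 and 8.62 ± 0.56 with vehicle in polysome RNA, and 9.47 ± 0.47 with PP242 and 8.78 ± 0.41 with vehicle in cytosolic RNA (SD, n = 4 arrays each). The RRAGD differences of 0.75 ± 0.28 and 0.69 ± 0.28 did not pass (adjusted p = 0.0870 and 0.0997), and with the replicate block they did (adjusted p = 7.04e-05 and 1.66e-04). RRAGA averaged 9.68 with PP242 against 10.06 with vehicle in polysome RNA, with no overlap between the groups (-0.37 ± 0.16, adjusted p = 0.144, or 0.0118 with the replicate block), and differed by -0.04 ± 0.16 in cytosolic RNA. RRAGB differed by -0.02 ± 0.16 and -0.13 ± 0.16. Without replicate 4 the RRAGC call was lost (0.61, adjusted p = 0.105).

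Ragulator anchors the Rag GTPases to the lysosome, and none of its 4 measured subunits was called. In polysome RNA LAMTOR2 to LAMTOR5 had differences of -0.24 ± 0.23, -0.26 ± 0.20, -0.35 ± 0.15 and -0.04 ± 0.18, all below 0. LAMTOR4 was the only one whose polysome groups did not overlap, with 9.19 to 9.78 in PP242 arrays against 9.81 to 10.02 in vehicle arrays. In cytosolic RNA the 4 differences lay between -0.26 (LAMTOR5) and 0.18 (LAMTOR2), and that of LAMTOR5 passed with the replicate block (adjusted p = 0.0434 against 0.357).

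GATOR1, which makes RRAGA and RRAGB hydrolyse GTP and so shuts mTORC1 off when amino acids are scarce, had 1 called subunit. NPRL3 read 6.94, 6.84, 6.76 and 7.02 in polysome PP242 arrays, against 6.73, 6.64, 6.48 and 6.53 in polysome vehicle arrays. Its cytosolic arrays gave 7.52, 7.87, 7.46 and 8.08 with PP242, against 7.17, 7.23, 7.11 and 7.17 with vehicle. The groups are apart in both pools, by a wider gap in the cytosol. NPRL3 rose by 0.56 ± 0.13 in cytosolic RNA (1.48-fold, adjusted p = 0.00512) and differed by 0.30 ± 0.13 in polysome RNA (adjusted p = 0.160). DEPDC5, the subunit that contacts the Rag proteins, averaged 6.51 with PP242 against 6.32 with vehicle in polysome RNA and 6.91 against 6.85 in cytosolic RNA. NPRL2, the catalytic subunit, averaged 8.44 against 8.73 and 7.71 against 7.67. The NPRL3 call was lost without replicate 2 or 4 (adjusted p up to 0.0629) and with its probe sets averaged (0.14, adjusted p = 0.236), and the probe set used is of a type that can bind related transcripts.

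GATOR2, which holds GATOR1 back when amino acids are present, had 1 subunit that rose in both pools and 1 that fell on polysomes. WDR59 read 9.69, 9.62, 10.00 and 9.38 in polysome PP242 arrays, against 9.16, 9.30, 9.36 and 9.17 in polysome vehicle arrays. Its cytosolic values were 9.09, 9.49, 9.27 and 9.66 with PP242, against 8.82, 8.89, 8.95 and 8.99 with vehicle. All treated arrays lie above all vehicle arrays in each pool. WDR59 rose by 0.43 ± 0.14 in polysome RNA (adjusted p = 0.0460) and by 0.47 ± 0.14 in cytosolic RNA (adjusted p = 0.0252). SEC13, which GATOR2 shares with the COPII coat and the nuclear pore, read 10.70, 10.76, 10.58 and 10.72 in polysome PP242 arrays, against 11.17, 11.38, 11.33 and 11.25 in polysome vehicle arrays. In the cytosol its values were 9.82, 10.13, 9.61 and 10.22 with PP242, against 10.03, 10.03, 9.98 and 10.10 with vehicle. The polysome groups are far apart and the cytosolic groups overlap. SEC13 fell by 0.59 ± 0.12 in polysome RNA (1.51-fold, adjusted p = 0.00199) and differed by -0.09 ± 0.12 in cytosolic RNA (adjusted p = 0.657).

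SEH1L, also shared with the nuclear pore, differed by 0.05 ± 0.21 in polysome and -0.45 ± 0.21 in cytosolic RNA (adjusted p = 0.160). WDR24 and MIOS differed by 0.01 ± 0.12 and 0.04 ± 0.17 in polysome RNA and by 0.28 ± 0.12 and 0.34 ± 0.17 in cytosolic RNA, where MIOS passed with the replicate block (adjusted p = 0.0267 against 0.191). The WDR59 calls were lost without replicate 1, 2 or 3 in polysome RNA (adjusted p up to 0.186) and without replicate 2 or 4 in cytosolic RNA (up to 0.184), and with its probe sets averaged in both pools (0.02 and 0.16). The SEC13 call held without each replicate in turn (adjusted p at most 0.0255) and was lost in the arrays numbered 3 and 4 alone (0.112).

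Folliculin, with FNIP1 or FNIP2, makes RRAGC and RRAGD hydrolyse GTP, and of these 3 genes FNIP2 fell in cytosolic RNA. FNIP2 read 5.84, 6.02, 5.98 and 5.99 in polysome PP242 arrays, against 5.71, 6.15, 5.96 and 6.29 in polysome vehicle arrays. Cytosolic signals were 6.72, 6.91, 6.79 and 6.63 with PP242, against 7.11, 6.96, 7.40 and 7.14 with vehicle. The cytosolic groups do not overlap, by a small margin, and the polysome groups do. FNIP2 fell by 0.39 ± 0.13 in cytosolic RNA (1.31-fold, adjusted p = 0.0448), and the call was lost without any 1 of the 4 replicates (adjusted p up to 0.189). FNIP1 averaged 7.79 with PP242 against 7.07 with vehicle in polysome RNA (0.73 ± 0.26, adjusted p = 0.0724, or 0.0219 with the replicate block) and 8.18 against 8.33 in cytosolic RNA (-0.15 ± 0.26). FLCN, which encodes folliculin, differed by 0.29 ± 0.16 and -0.04 ± 0.16. Of the sestrins, which bind GATOR2, the listed SESN1 and SESN3 were not called, while SESN2, part of the wider list below, fell in both pools. SESN1 differed by -0.03 ± 0.12 and -0.22 ± 0.12. SESN3 was dim, with a mean of at most 2.75 in each of its 7 probe sets.

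Among the kinases, RPS6KB1 fell and SGK1 rose in both pools, and the other 4 were not called. RPS6KB1 encodes the S6 kinase that mTORC1 activates to promote translation, and it read 6.24, 6.22, 6.99 and 6.89 in polysome PP242 arrays, against 6.96, 7.02, 7.53 and 7.57 in polysome vehicle arrays. Its cytosolic arrays gave 7.14, 7.83, 8.14 and 7.59 with PP242, against 8.35, 8.58, 8.74 and 8.82 with vehicle. The cytosolic groups are apart and the polysome groups overlap by a narrow margin, with each treated polysome array below the vehicle array of the same number. RPS6KB1 fell by 0.69 ± 0.22 in polysome RNA (1.61-fold, adjusted p = 0.0434) and by 0.95 ± 0.22 in cytosolic RNA (1.93-fold, adjusted p = 0.00523), the largest fall among the 42 genes there. SGK1, an AKT relative that mTORC2 activates, read 11.66, 11.69, 11.89 and 11.95 in polysome PP242 arrays, against 11.26, 11.32, 11.40 and 11.30 in polysome vehicle arrays. Its cytosolic values were 12.23, 12.27, 12.28 and 12.27 with PP242, against 11.69, 11.74, 11.71 and 11.68 with vehicle. The groups are apart in both pools, and the cytosolic arrays of either treatment lie within a band of less than 0.1. SGK1 rose by 0.48 ± 0.09 in polysome RNA (1.39-fold, adjusted p = 8.90e-04) and by 0.56 ± 0.09 in cytosolic RNA (1.47-fold, adjusted p = 1.99e-04).

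The paralog RPS6KB2 differed by -0.21 ± 0.17 in polysome and 0.21 ± 0.17 in cytosolic RNA. AKT1 and AKT2, the kinases that restrain TSC, differed by -0.29 ± 0.19 and -0.11 ± 0.12 in polysome RNA and by -0.03 ± 0.19 and -0.12 ± 0.12 in cytosolic RNA. PDPK1, which encodes the kinase PDK1 that activates AKT, S6 kinases and SGK, differed by 0.21 ± 0.11 and 0.08 ± 0.11. The polysome call of RPS6KB1 was lost without any 1 of the 4 replicates (adjusted p 0.0550 to 0.177) and after cyclic loess (-0.67, adjusted p = 0.0575), and its cytosolic call without replicate 4 (-0.85, adjusted p = 0.0606). The cytosolic SGK1 call held under all 16 alternatives run, and the polysome call under 15, missing in the arrays numbered 1 and 2 alone (0.39, adjusted p = 0.0530).

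The array numbers carry a difference of their own for some of these genes. Averaged over the groups, numbers 1 and 2 exceeded numbers 3 and 4 by 0.80 for DEPTOR and by 0.75 for RRAGD, and lay below them by 0.49 for RPS6KB1 (a difference of -0.49). Within numbers 1 and 2 the PP242 effects in polysome and cytosolic RNA were 0.70 and 0.66 for DEPTOR, 0.62 and 0.68 for RRAGD, and -0.76 and -0.98 for RPS6KB1. Within numbers 3 and 4 they were 1.45 and 0.98 for DEPTOR, 0.88 and 0.70 for RRAGD, and -0.61 and -0.92 for RPS6KB1. The directions were thus the same within either pair of numbers. Fewer genes were called in these subsets: 5 in polysome and 7 in cytosolic RNA in numbers 1 and 2, and 3 in either pool in numbers 3 and 4. Calls over all genes fell as well, from 2644 in polysome and 3253 in cytosolic RNA with every array. They were 2006 and 2450 in numbers 1 and 2, and 1089 and 1058 in numbers 3 and 4.

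Whether PP242 changed polysome association, that is, whether its effect differed between polysome and cytosolic RNA, was tested as the difference of the 2 effects. None of the 42 genes was called, as for all genes, of which 0% were called higher and 0% lower (limma), while 3 of the 42 and 1750 of the 19775 genes had an unadjusted p under 0.05. Those 3 were SEC13, whose polysome effect was lower by 0.50 (a difference of -0.50 ± 0.17, unadjusted p = 0.00804, adjusted p = 0.558), TSC1 (0.47 ± 0.20, unadjusted p = 0.0290) and FNIP1 (0.87 ± 0.36, unadjusted p = 0.0272). A regression of each gene's polysome values on its cytosolic values, with treatment as a term, called RICTOR (0.45), TSC1 (0.46) and FNIP1 (0.79) higher and TBC1D7 (-0.68) and SEC13 (-0.57) lower, against 1.61% and 1.94% of all genes. Its adjusted p-values were 0.0315 for RICTOR, 0.0383 for TSC1, 0.0250 for FNIP1, 0.0221 for TBC1D7 and 0.00732 for SEC13. The regression takes out only that part of the polysome change that follows the cytosolic values within a treatment. Its estimates lay near the polysome effects: 0.44 for RICTOR and TSC1, 0.73 for FNIP1, -0.75 for TBC1D7 and -0.59 for SEC13. For TBC1D7 the plain difference of effects was -0.12 ± 0.23. Without cytosolic PP242 arrays 2 and 4, the differences shrank to -0.27 for SEC13, 0.29 for TSC1 and 0.34 for FNIP1.

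**Figure D3:**
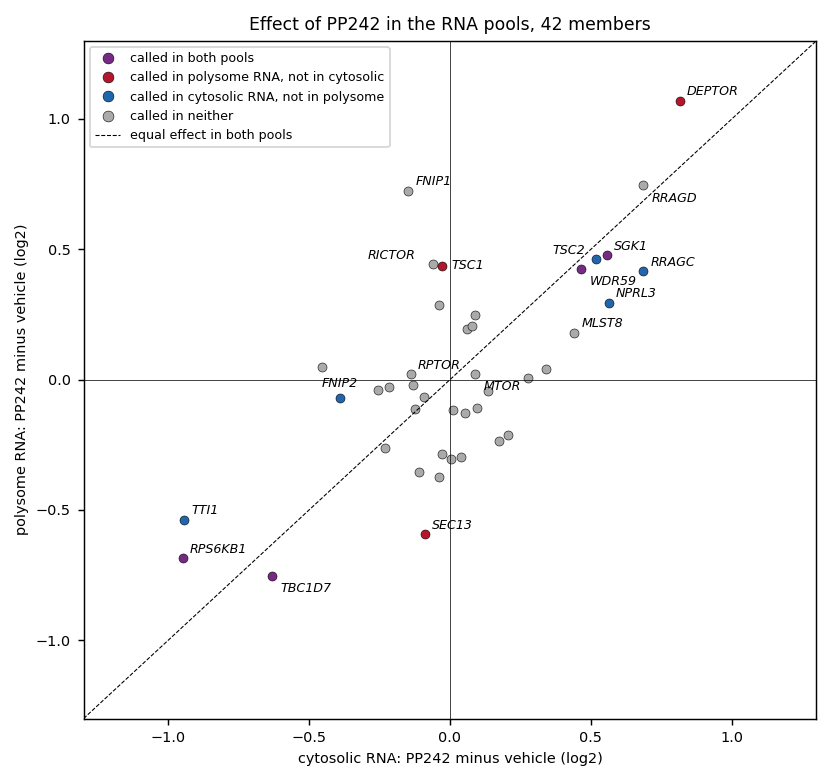
PP242 effect in polysome RNA (y axis, log2) against that in cytosolic RNA (x axis, log2) for the 42 genes, with a dashed line of equal effects and colours for the pools in which a gene was called. DEPTOR, RRAGD, RRAGC, SGK1, WDR59 and TSC2 lie at upper right and RPS6KB1, TBC1D7 and TTI1 at lower left, while FNIP1, RICTOR, TSC1 and SEC13 lie near 0 on the x axis and away from 0 on the y axis.

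The level of an mRNA on polysomes relative to the cytosol depends on how the pools are put on 1 scale, so it was computed on the deposited values, after cyclic loess over all arrays, and with each array centred on its median. On the deposited values 9 of the 42 genes were higher and 16 lower in polysome than in cytosolic RNA in PP242-treated cells (all genes: 16.1% higher, 38.1% lower), and 10 higher and 16 lower in vehicle-treated cells (16.8% and 35.9%). After cyclic loess 10 were higher and 13 lower with PP242 (all genes: 23.8% and 23.0%), and 10 higher and 15 lower with vehicle (23.6% and 22.3%). With median centring 18 were higher and 10 lower with PP242 (all genes: 34.7% and 17.5%), and 19 higher and 7 lower with vehicle (36.9% and 15.4%), so the split of all genes turned over with that of the 42. The median over all genes was -0.18 on the deposited values, 0.01 after cyclic loess and 0.14 after centring with PP242, and -0.16, 0.01 and 0.17 with vehicle. On all 3 scales and under both treatments, SEC13, NPRL2, FLCN and TSC2 were called higher on polysomes and RPS6KB1, FNIP2, LAMTOR3, LAMTOR5, SESN1 and PRR5L lower. With probe sets averaged, FLCN and TSC2 lost these calls under both treatments and NPRL2 with PP242. The second probe set of PRR5L went the other way from its brightest. It read 4.7 on polysomes against 3.9 in the cytosol with PP242, and 4.9 against 4.0 with vehicle. TSC2 lost them without replicate 1, 2 or 3 with PP242 and without 1 or 2 with vehicle, and FLCN without 2 or 4 with vehicle. The share of all genes called alike on all 3 scales was not computed, so these gene lists have no background. For SEC13 the deposited difference was 0.75 in PP242-treated cells, with 10.69 on polysomes against 9.95 in the cytosol, and 1.25 in vehicle-treated cells. For RPS6KB1 it was -1.09 with PP242 and -1.35 with vehicle, and for FNIP2 -0.81 and -1.13. MTOR (0.23 with PP242, 0.29 with vehicle) passed with median centring but on neither other scale.

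**Figure D4:**
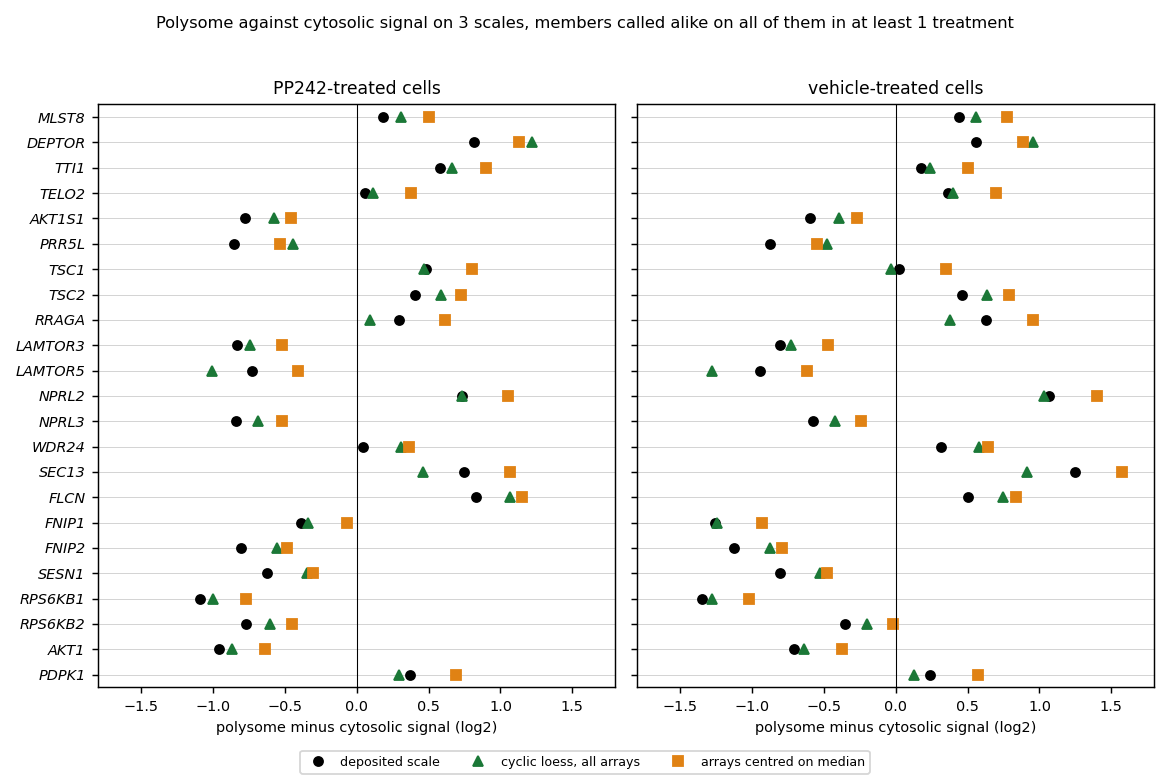
Polysome minus cytosolic signal (x axis, log2) on 3 scales, in PP242-treated cells (left) and vehicle-treated cells (right), for the 23 genes called in the same direction on all scales under at least 1 treatment. The share of all genes that pass this rule was not computed. Circles are deposited values, triangles cyclic loess and squares median-centred arrays, and SEC13 and NPRL2 lie right of 0 and RPS6KB1 and FNIP2 left of 0 on every scale.

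Probe sets of the same gene did not always move alike, and the values above belong to the brightest. All 3 probe sets of RPS6KB1 had negative differences in polysome RNA (-0.69, -0.30 and -0.50) and in cytosolic RNA (-0.95, -0.43 and -0.63), and when each probe set was tested on its own all 3 were called in cytosolic RNA (adjusted p = 0.00724, 0.0234 and 0.0263). Both probe sets of RRAGD were alike on polysomes (0.75 and 0.75), and the pair of brighter RRAGC probe sets had cytosolic differences of 0.69 and 0.53. For RICTOR the second probe set had a polysome difference of 0.67 (adjusted p = 0.0269 over all probe sets) beside 0.44 for the brightest. The 3 brighter FNIP2 probe sets had cytosolic differences of -0.39, -0.47 and -0.67, the last with an adjusted p of 0.00461. By contrast, the other NPRL3 probe sets lay between -0.08 and 0.07 in cytosolic RNA, where the brightest had 0.56. The second and dimmer WDR59 probe set had -0.22 in polysome and 0.08 in cytosolic RNA. RHEB had 0.10 in cytosolic RNA in its brightest probe set, which can bind related transcripts, and -0.90 and -0.70 in the next 2 (adjusted p = 0.0598 and 0.0601), so its direction is not settled. The third probe set of PDPK1 had 0.39 in cytosolic RNA (adjusted p = 0.0407) beside 0.08 in the brightest. For MAPKAP1 the third probe set had -0.42 in cytosolic RNA (adjusted p = 0.0455), while the 2 brighter ones had 0.14 and 0.17.

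**Figure D5:**
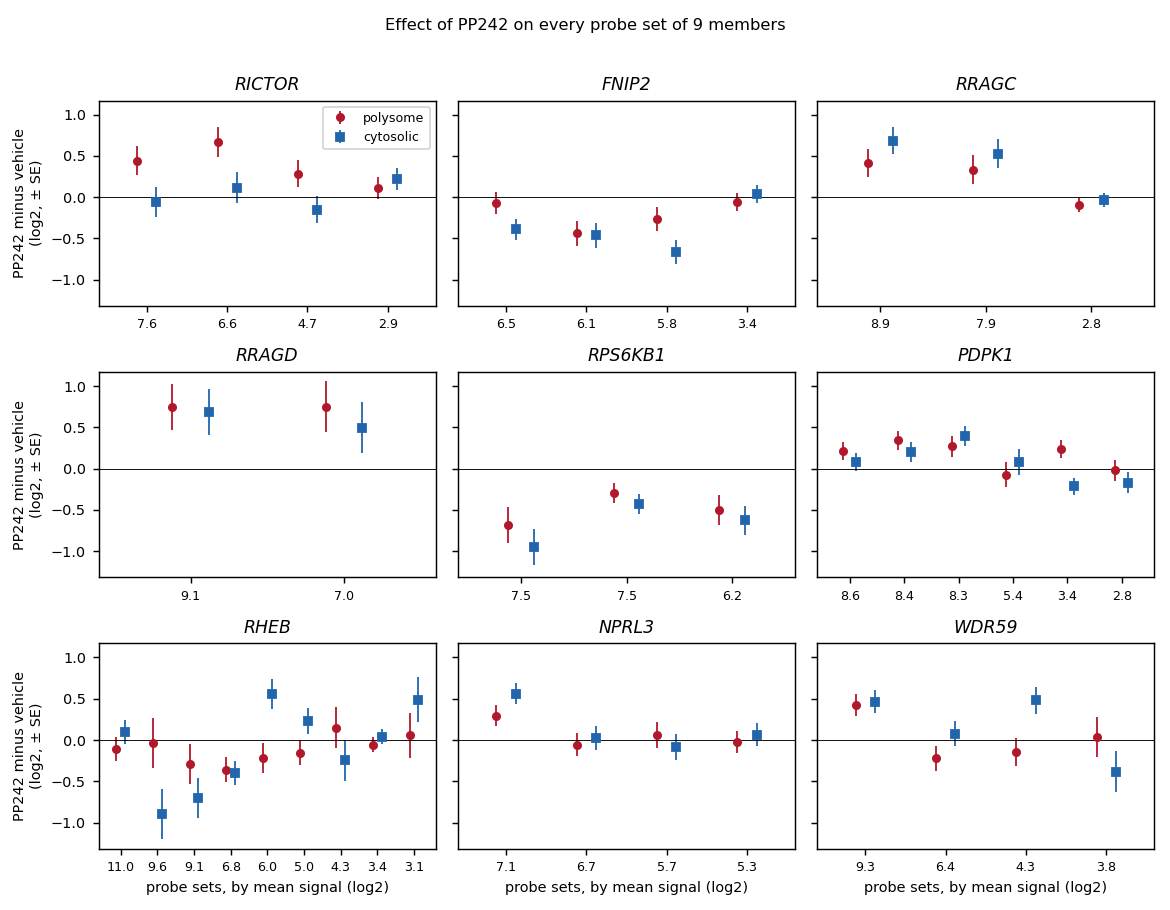
PP242 minus vehicle difference (y axis, log2, ± standard error) of every probe set of 9 genes, ordered along the x axis by mean log2 signal from bright to dim, in polysome RNA (red circles) and cytosolic RNA (blue squares). The RPS6KB1 and RRAGD probe sets point one way, while those of RHEB, NPRL3 and WDR59 differ from the brightest.

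A wider list of 73 other genes of the PI3K, AMPK and mTOR pathways, of which 66 were measured, gives the setting. Of these 66, 7 were called higher and 8 lower in polysome RNA (all genes: 6.82% and 6.55%) and 8 higher and 9 lower in cytosolic RNA (8.54% and 7.91%). None was called in polysome association by limma (6 with an unadjusted p under 0.05). The list had medians of 0.01 and 0.06 in the pools, beside -0.01 and 0.04 over all genes. Of the insulin receptor substrates, IRS2 had 7.70 ± 0.18 with PP242 and 6.63 ± 0.21 with vehicle on polysomes (SD, n = 4 arrays each), and rose by 1.07 ± 0.13 there and by 1.06 ± 0.13 in cytosolic RNA (adjusted p = 9.21e-06 and 9.70e-06). IRS1 rose by 0.91 ± 0.14 in polysome RNA and differed by 0.36 ± 0.14 in cytosolic RNA (adjusted p = 0.0993). The PI3K regulatory subunit PIK3R3 fell by 1.20 ± 0.16 and 1.33 ± 0.16 in polysome and cytosolic RNA. Of the lipid kinase that makes PI3P, the catalytic PIK3C3 rose (0.55 and 0.77) and the regulatory PIK3R4 fell (-0.63 and -0.50).

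Among upstream inhibitors of mTORC1, DDIT4, which acts through TSC, fell by 1.57 ± 0.32 in polysome and 1.32 ± 0.32 in cytosolic RNA, and SESN2 fell by 0.67 ± 0.12 and 0.51 ± 0.12. The arginine sensor CASTOR1, in contrast, rose by 0.98 ± 0.25 and 1.42 ± 0.25. Downstream, EIF4E, the cap-binding translation factor, fell by 0.60 ± 0.14 and 0.92 ± 0.14, NDRG1, a substrate of SGK1, rose by 0.82 ± 0.17 and 0.94 ± 0.17, and the S6 kinase relative RPS6KA1 fell by 0.88 ± 0.16 and 0.56 ± 0.16. RUVBL1, part of the complex that with TTI1 and TELO2 assembles mTOR, fell by 0.66 ± 0.13 in polysome RNA and differed by -0.36 ± 0.13 in cytosolic RNA (adjusted p = 0.0739). Calls were lost for CASTOR1 on polysomes without replicate 1 or 4 (adjusted p = 0.0537 and 0.0704), for EIF4E on polysomes without replicate 2 (0.0532), and in cytosolic RNA for PIK3R4 without replicate 2 or 4, SESN2 without replicate 1 or 4 and RPS6KA1 without replicate 1, 2 or 3 (0.0525 to 0.139). In the mean of a gene's probe sets the calls of PIK3R4 in both pools and of PIK3C3, CASTOR1 and EIF4E on polysomes were lost, with -0.18 for EIF4E.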

How the data were processed

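Per the labels, biotin-labelled RNA made with a 3′ IVT kit was hybridised to Affymetrix arrays, 4 for each RNA pool and treatment. The deposited values are log2 signals, and per the submitters' processing notes they were made with RMA, whose version is not given in the sources used here. Of 54613 probe sets, 41091 list 1 gene, 1801 list several and were left out, and 11721 are not in the platform annotation used here, which can be old. The probe set with the highest average stood for each of 19775 genes. No depth exists for arrays, and the 4 arrays per group limit the precision.

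Differences were estimated with limma 3.58.1 (R 4.3.3, statmod 1.5.0): 1 mean per group over all 16 arrays, moderated variances with an intensity trend, two-sided tests, and Benjamini-Hochberg adjustment over all genes in each of 5 contrasts. Every adjusted p in the text is from this fit or from the alternative named beside it, and a gene is called where it is under 0.05. The script was tested on simulated data with the same spread per gene in every group and no link between same-numbered arrays, unlike these data. The same replicate numbers appear in all groups: in 16 of 16 same-numbered pairs of compared groups, deviations from the group means correlated above 0.1 (0.164 to 0.511), and 13 of 16 matched their own number best, so the numbers pair the samples. The calls are nevertheless from the fit without the pairing. For the 42 genes, the value with the replicate number as a block stands beside each PP242 result whose call it changes. In the wider pathway list the block was looked at only for named calls, so results given there as not passing have no block value.

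The genes and lists were chosen with earlier results of these data known. Listed genes called for PP242, with MTOR, RPTOR, RICTOR and MLST8, have every array's value, and up to 12 called genes of the wider pathway list, by smallest p, are named. Promoter letters are from RefSeq (GRCh38.p14). Alternatives were the replicate block, 2 rescalings, other probe set rules, a filter on means under 5, no trend, array weights, 1 pool at a time and left-out arrays.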

Additional observations from a re-analysis of the deposited data

Results flagged for a closer look

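In 7 of the 168 groups of 4 arrays (42 genes in 4 groups), or 4.17%, 1 array stood apart from the other 3 by a gap, as a share of the group's range, above Dixon's 95% limit, which chance passes in about 1 of 20 groups. RPTOR read 6.27 in cytosolic PP242 replicate 4, against 7.07 to 7.22 in the other 3 arrays of its group. AKT1S1 read 6.61 in polysome PP242 replicate 4, where the others had 6.29 to 6.33. FLCN read 6.54 in cytosolic PP242 replicate 1, beside 6.07 to 6.14. PDPK1 read 8.77 in polysome PP242 replicate 2, beside 8.94 to 8.95. In polysome vehicle replicate 2, NPRL2 read 8.95, beside 8.64 to 8.67, and RHEB 10.76, beside 10.90 to 10.91. RHEB in cytosolic vehicle replicate 2 read 11.23 where the other 3 arrays all had 11.21, a step of 0.02 that sets no level apart. None of these genes was called for PP242 in either pool.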

How the results depend on the processing

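Of the 42 genes, 7 were called in polysome RNA and 9 in cytosolic RNA, and the replicate block raised both counts to 14, where 4020 and 4929 of all 19775 genes were called. In polysome RNA 4 were called with every probe set tested on its own (2401 of all genes), 13 with array weights (3713), 11 with only that pool's 8 arrays (3102), 13 without cytosolic PP242 arrays 2 and 4 (3619) and 3 in numbers 3 and 4 alone (1089), and leaving out each replicate gave 2 to 5 (1627 to 1889). In cytosolic RNA 5 were called without those 2 arrays (1976 of all genes) and 3 in numbers 3 and 4 alone (1058). Leaving out each replicate gave 3 to 10 there (1543 to 3319). With array weights 6 were called in cytosolic RNA (2536 of all genes), and TSC2, WDR59 and FNIP2 lost their calls. With only that pool's 8 arrays 6 were called (2069), where TSC2, TBC1D7, WDR59 and FNIP2 lost theirs and DEPTOR was added. For polysome association the count of 0 became 5 by regression of polysome on cytosolic values (702 of all genes) and was 0 with the block by culture. The regression estimates lay near the polysome effects alone, so those 5 calls do not show a change in association. The counts of 25 (PP242) and 26 (vehicle) genes that differed between polysome and cytosolic RNA became 26 and 30 with the replicate block. They were 16 and 11 in numbers 3 and 4 alone. Over all genes the counts of 10703 and 10431 became 11930 and 11702 with the block, and 6740 and 6421 in numbers 3 and 4. Among the calls of single genes, SGK1 in cytosolic RNA held under all 16 alternatives, SGK1 and SEC13 in polysome RNA and TTI1 and RPS6KB1 in cytosolic RNA under 15 each, and FNIP2 in cytosolic RNA under 6. No PP242 call changed sign under an alternative run, and the block lost none of them. The causes of these changes were not tested, and the left-out settings also have fewer arrays.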
